A study of Mus musculus with 2 samples.

Results

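The clustered protocadherin genes form 3 neighbouring gene families on mouse chromosome 18, named alpha, beta and gamma. They were taken as the protein-coding genes of the GENCODE M21 annotation (genome build GRCm38) on that chromosome whose symbol begins with Pcdha, Pcdhb or Pcdhg. The rule found 57 genes of 21755 on the 20 chromosomes that carry boundaries (19 autosomes and X), with 14 alpha, 22 beta and 21 gamma genes. All 57 were placed against the boundary list, and no filter removed a member.

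The study measured chromosome folding by in situ Hi-C in immediate neuronal precursor cells, the dividing progenitors of olfactory sensory neurons. The cells were sorted by flow cytometry from the olfactory epithelium of Ngn1-GFP mice, in which a green fluorescent reporter marks cells expressing the neurogenic factor neurogenin 1. Pups of the FVB/NTac strain and of both sexes gave 2 biological replicates of 2200000 and 2100000 cells, which were fixed in 1% formaldehyde and digested with DpnII, with no treatment. There is 1 group and no contrast. The labelled identity of the cells rests on the reporter and the sorting gate, and no expression values were used here to check it against marker genes.

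The boundary list holds 7841 intervals of 5 kb, which in Hi-C mark places across which contacts are depleted. The score of a boundary is the authors' own value, and the classes they named follow it, with 4137 strong boundaries from 0.5 upwards and 3704 weak boundaries from 0.2 upwards. Boundaries were called on the matrix that combined both replicates, so the positions and scores below carry no measure of spread between replicates. The depth of sequencing is unknown. A domain is the sequence between neighbouring boundaries of the list.

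Clustered protocadherins are cell-surface adhesion proteins that give each neuron its own identity. A neuron expresses a small set of them, chosen largely at random by promoter choice, and recognition between like sets makes the branches of one neuron avoid each other. In olfactory sensory neurons this diversity is needed for axons to spread within the glomeruli of the olfactory bulb. Each alpha and gamma gene has a variable exon with its own promoter, which is spliced to constant exons shared by the whole cluster, whereas each beta gene stands alone. The variable exon encodes the extracellular cadherin repeats and the membrane span, and the constant exons encode the shared intracellular end. CTCF and cohesin, which fold chromosomes into loops, bind at many of these promoters and exons, and distant enhancers lie downstream of the variable exons.

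The members followed this plan in the annotation. All 57 lay on the plus strand, and they covered 0.912 Mb at chr18:36930184-37841873. The alpha cluster occupied chr18:36930184-37187661, which is 257 kb long. The beta cluster occupied chr18:37264938-37524479, with a length of 260 kb. The gamma cluster occupied chr18:37661793-37841873 and was the shortest, at 180 kb. The median spacing of neighbouring gene starts was 7.32 kb in alpha, 7.78 kb in beta and 5.35 kb in gamma. The first coding exon was of one size in the 3 families, with medians of 2386.5 bp in alpha, 2388 bp in beta and 2421 bp in gamma and a range of 2316 to 2562 bp over all members. In the longest coding transcript of each gene, all 22 beta genes had 1 exon, and the alpha and gamma genes had 4 exons each, of which 3 are constant.

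There were 5 C-type genes among the members, namely Pcdhac1, Pcdhac2, Pcdhgc3, Pcdhgc4 and Pcdhgc5. These genes lie at the downstream end of their clusters and resemble each other more than their neighbours, and they are expressed more uniformly than the alternate genes that are chosen at random. One alpha symbol was carried by a pair of gene models. Both ENSMUSG00000007440.10, starting at 37005203, and ENSMUSG00000102206.5, starting at 37010712, are named Pcdha11 in the annotation, whereas RefSeq places Pcdha10 at 37005320 and Pcdha11 at 37010858. They are called the first and second Pcdha11 model here and counted as separate genes. Pcdhgb8 is annotated as a polymorphic pseudogene and was therefore not a member.

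There were 3 boundaries inside the span of the clusters, of which 1 was strong and 2 were weak. Their density was 3.29 per Mb in the span, against 3.07 per Mb over the whole list. This was 1 boundary for every 19 members. The strong boundary lay between the alpha and beta clusters, and the weak ones lay inside the alpha and the gamma cluster. The beta cluster held no boundary.

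The highest score at the locus belonged to the border upstream of the alpha cluster. This strong boundary at chr18:36805001-36810000 scored 2.08, which was rank 91 of all 7841 boundaries and rank 4 of the 278 on chromosome 18. It was intergenic and lay 120 kb upstream of the Pcdha1 start. The nearest gene start on its other side, 11.1 kb away, was that of Zmat2, which encodes a splicing factor. The next boundary upstream, at chr18:36555001-36560000, was strong with a score of 0.863 and contained the start of Ankhd1.

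The boundary inside the alpha cluster, at chr18:37080001-37085000, was weak with a score of 0.303, higher than 24.1% of all boundaries. It lay in the introns of the 12 alpha genes from Pcdha1 to Pcdha12. On its upstream side the nearest start was that of Pcdha12 at 59.9 kb, and on its downstream side that of Pcdhac1 at 5.01 kb. This stretch from Pcdha12 to Pcdhac1 was the widest spacing of starts in the alpha cluster, at 69.9 kb. A transcribed processed pseudogene, Gm19035, starts 0.007 kb before the interval and runs into it.

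The boundary between the alpha and beta clusters, at chr18:37220001-37225000, was strong with a score of 1.21, rank 918 of 7841. It lay in the 77.3 kb gap between the clusters, 76.5 kb downstream of the Pcdhac2 start and 39.9 kb upstream of the Pcdhb1 start. No exon overlapped it, and the only genes spanning it were Gm42416, Gm37013 and Gm37388, annotated protein-coding read-through models of 857 to 887 kb that begin among the alpha genes and end at the gamma constant exons. Each of these models crossed 3 boundaries. No protein-coding gene lay wholly within this gap.

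The boundary inside the gamma cluster, at chr18:37750001-37755000, was weak with a score of 0.203. Only 54 of the 7841 boundaries scored lower, and its score was 0.00264 above the lowest in the list. It overlapped the variable exon of Pcdhgb7, whose start fell inside the interval, and the introns of the 15 gamma genes from Pcdhga1 to Pcdhga10. The nearest starts outside it were those of Pcdhga10 at 3.01 kb upstream and Pcdhga11 at 0.731 kb downstream. Unlike the alpha boundary, it did not fall in the widest spacing of its cluster, which was the 40.8 kb between Pcdhga12 and Pcdhgc3. The widest spacing in the beta cluster, 45.7 kb between Pcdhb8 and Pcdhb9, held no boundary.

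Downstream of the gamma cluster the first boundary was weak and the next strong. The weak one, at chr18:37885001-37890000, scored 0.384 and lay 43.1 kb past the last base of the members, over a coding exon of Diaph1, a formin that assembles actin filaments. The strong one, at chr18:37965001-37970000, scored 1.39, rank 576 of 7841, and lay 123 kb past the last base of the members. It contained the start of Fchsd1, an F-BAR domain protein that acts on actin at membranes. The strong borders around the locus thus scored 2.08 upstream and 1.39 downstream, each above all 3 scores of the span. The median score of the whole list was 0.533, above both weak inner scores.

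**Figure D1:**
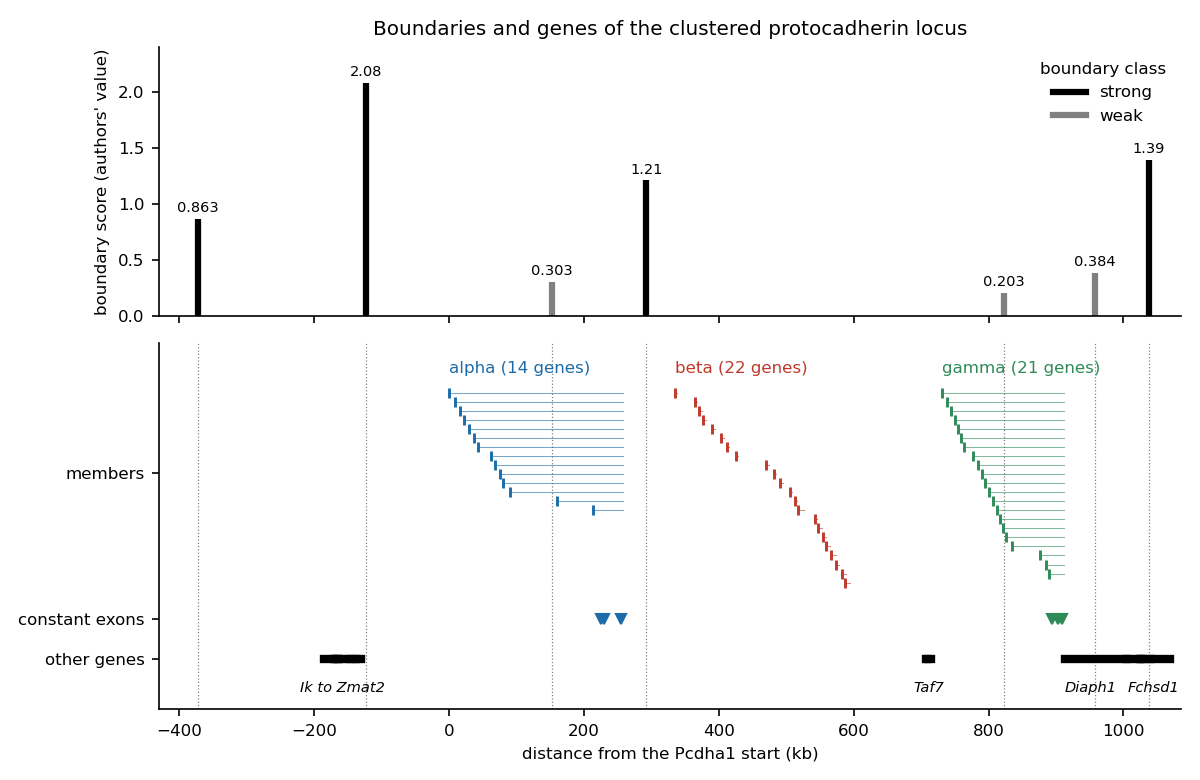
Boundaries and genes of the clustered protocadherin locus, by distance from the Pcdha1 start in kb. The upper panel shows the authors' score of each boundary as a bar from 0 (black strong, grey weak). The lower panel shows the start of each member as a tick and its extent as a line, the constant exons as triangles and other protein-coding genes as black bars without the read-through models. The weak boundaries at 0.303 and 0.203 fall inside the alpha and gamma clusters, and the strong boundary at 1.21 falls between alpha and beta.

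**Figure D2:**
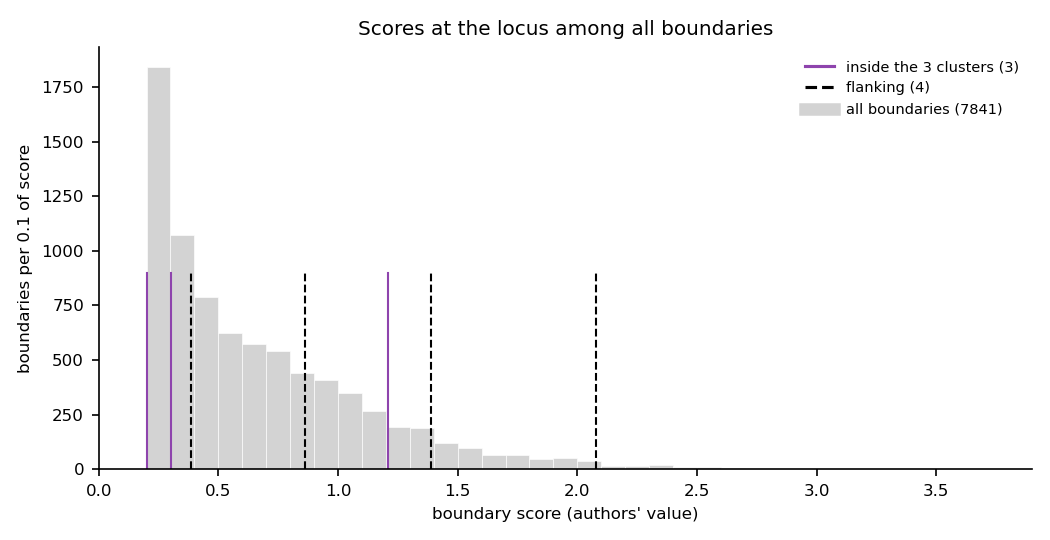
Number of boundaries per 0.1 of the authors' score for all 7841 boundaries (grey bars), with the 3 boundaries inside the span (solid purple) and the 4 flanking ones (dashed black) drawn as vertical lines whose height has no meaning. The lowest inner score, 0.203, lies at the lower end of the list, and the upstream border at 2.08 lies in its upper tail.

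The boundaries divided the member starts among 4 domains and 1 boundary interval. The first domain, chr18:36810001-37080000, was 270 kb long and held the starts of the 12 alternate alpha genes, Pcdha1 to Pcdha12, with those of the 3 read-through models. The second, chr18:37085001-37220000, was 135 kb long and held Pcdhac1 and Pcdhac2 alone. Within the alpha cluster, the alternate genes and the C-type genes therefore started in different domains.

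The third domain, chr18:37225001-37750000, was 525 kb long and joined all 22 beta genes with 15 gamma genes. It also held the 2 protein-coding genes between these clusters, Slc25a2, a mitochondrial ornithine carrier, and Taf7, a subunit of the general transcription factor TFIID. The gap from beta to gamma was 137 kb and contained 0 boundaries. The fourth domain, chr18:37755001-37885000, was 130 kb long and held 5 gamma genes, namely Pcdhga11, Pcdhga12 and the C-type genes Pcdhgc3, Pcdhgc4 and Pcdhgc5. Pcdhgb7 was the member that started inside a boundary interval.

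By size these domains lay on both sides of the median of the list. The 525 kb domain was longer than 87.3% of all 7821 domains, and the 270 kb domain was longer than 51.9%. The 135 kb domain was longer than 8.39%, and the 130 kb domain was longer than 7.05%. The median of all domains was 260 kb, with quartiles of 180 and 385 kb. The fourth domain had a weak boundary on both sides, as did 1744 (22.3%) of all domains.

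The domain shared by beta and gamma was among the fullest of the list. It held 39 protein-coding starts, of which 37 were members. By starts it had rank 10 of 7821 domains, whereas the median domain held 1 start and the fullest held 88. Domains ranked above it included ones with vomeronasal receptor (Vmn1r), olfactory receptor (Olfr), defensin (Defa) or Rhox genes, so such crowding was not particular to this locus. The domain of Pcdha1 to Pcdha12 held 15 starts. With strong boundaries alone, the locus had 2 domains. One of 410 kb, chr18:36810001-37220000, held all 14 alpha genes, and one of 740 kb, chr18:37225001-37965000, held all 22 beta and all 21 gamma genes. The median of the 4117 domains between strong boundaries was 400.0 kb.

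**Figure D3:**
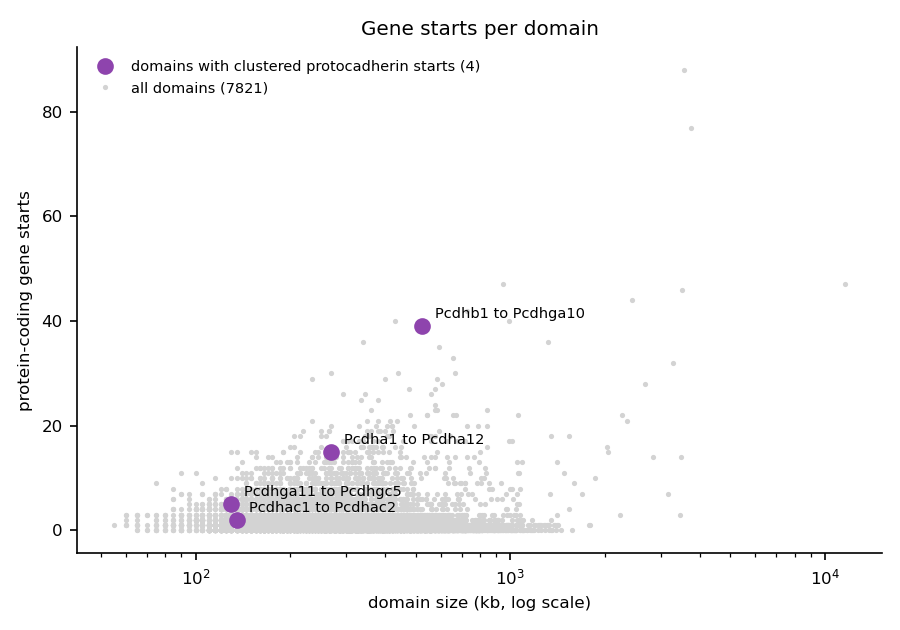
Protein-coding gene starts in each domain against domain size in kb (log scale), for the 4 domains with clustered protocadherin starts (purple, named by their first and last member) and all 7821 domains (grey). The domain from Pcdhb1 to Pcdhga10 holds 39 starts in 525 kb.

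Few member starts lay near a boundary. Within 10 kb, measured from the 5' end of the gene to the nearest edge of the interval, there were 5 of 57 members (8.77%), against 16.4% of all protein-coding genes. One was an alpha gene, 4 were gamma genes and 0 were beta genes. The alpha gene was Pcdhac1, a C-type gene, at 5.01 kb from the boundary scoring 0.303. The gamma genes shared the boundary scoring 0.203, with Pcdhgb6 at 7.91 kb, Pcdhga10 at 3.01 kb, Pcdhgb7 inside the interval and Pcdhga11 at 0.731 kb. Since these 4 starts share 1 boundary, they are not independent. Pcdhga12 at 10.6 kb and Pcdhga9 at 13.1 kb were just outside the distance.

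With other distances the member share was again the lower one. Starting inside an interval there was 1 member (1.75%), against 5.07% of all genes. Within 25 kb there were 9 members (15.8%), against 27.8% of all genes. Within 50 kb there were 13 members (22.8%), against 46.3% of all genes. When the nearest of all protein-coding transcript starts was used, the count of members within 10 kb was again 5, against 18.1% of all genes. No member lay within 10 kb of a strong boundary, against 10.6% of all genes, or of a boundary at or above the median score, against 10.2% of all genes. Neighbouring members stand in the same few domains, so these shares describe 1 locus.

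The gamma starts lay nearest to boundaries by their median and the beta starts farthest. Over all families, the median distance to the nearest boundary was 82.1 kb over the 57 members and 55.3 kb over all protein-coding genes. In the alpha cluster the median was 96.9 kb, with a range of 5.01 kb at Pcdhac1 to 134 kb at Pcdha3. Pcdha1, at the upstream end, lay 120 kb away, and Pcdhac2, at the downstream end, lay 58.5 kb away. In the beta cluster the median was 204 kb, with Pcdhb1 the nearest at 39.9 kb and Pcdhb18 the farthest of all members at 261 kb. The last beta gene, Pcdhb22, lay 232 kb away. In the gamma cluster the median was 43.0 kb, with 88.2 kb at Pcdhga1 the largest value. Every gamma distance was to the boundary scoring 0.203, close to the lowest score of the list, so the gamma median rests on that interval alone. The gamma C-type genes lay at 51.4 kb for Pcdhgc3, 60.1 kb for Pcdhgc4 and 64.5 kb for Pcdhgc5. The ranges of the 3 families overlapped. Pcdhb1 stood apart from the other beta genes, of which the nearest to a boundary was Pcdhb2 at 69.8 kb.

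**Figure D4:**
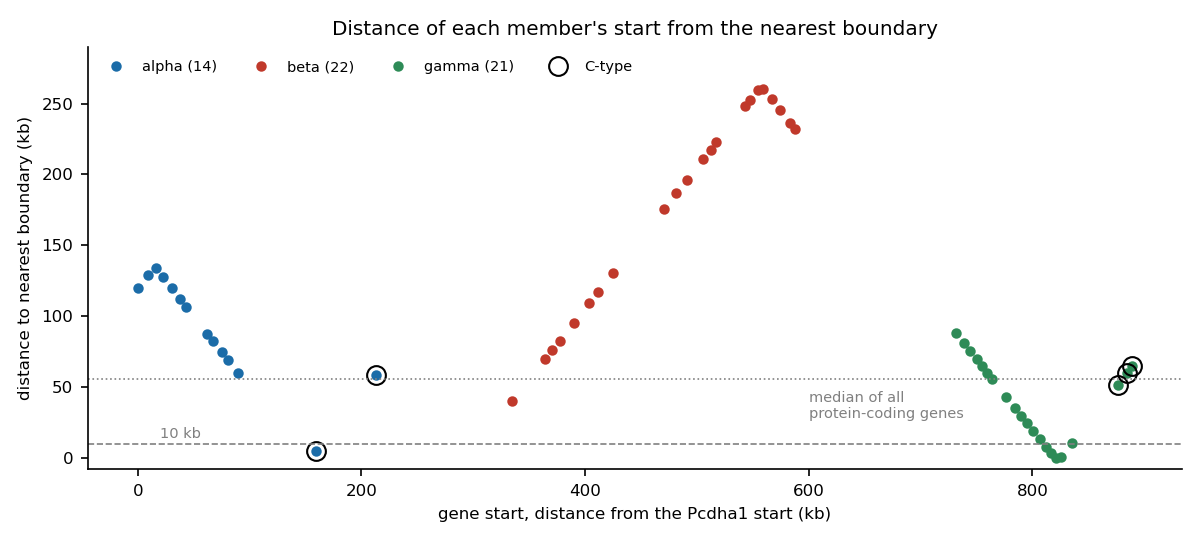
Distance in kb from each member's start to the nearest boundary, by position of the start relative to Pcdha1 (alpha blue, beta red, gamma green, C-type genes ringed). The dashed line marks 10 kb and the dotted line the median of all protein-coding genes, 55.3 kb. Beta genes reach 261 kb, and the 5 points below the dashed line are Pcdhac1 and 4 gamma genes.

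The long gene models of the alpha and gamma clusters ran across the weak boundaries. A boundary interval lay between the start and the end of 27 of 57 members (47.4%), against 10.6% of all protein-coding genes. These were the 12 alpha genes from Pcdha1 to Pcdha12, all at the boundary scoring 0.303, and the 15 gamma genes from Pcdhga1 to Pcdhga10, all at the boundary scoring 0.203. Each crossed 1 boundary. The beta genes, 2.59 to 8.70 kb long, crossed none. Their median length was 3.71 kb, and a gene shorter than a 5 kb interval cannot cross one by this definition.

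Among genes of 22.4 to 257 kb, the range of all alpha and gamma genes, 27 of 35 members crossed a boundary, against 16.8% of the 8694 genes in this range. Lengths within the range were not matched. The 8 alpha and gamma genes that crossed none were Pcdhac1, Pcdhac2, Pcdhga11, Pcdhga12, Pcdhgc3, Pcdhgc4 and Pcdhgc5, which start downstream of the boundary of their cluster, and Pcdhgb7, which starts inside it. The 27 genes share 2 boundaries and the same ends, so they are not independent. The shares of all genes include the members. No member crossed a strong boundary, against 6.45% of all genes, and no member crossed a boundary at or above the median score, against 6.12% of all genes.

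The constant exons of both clusters lay on the far side of the weak boundary from most variable exons. The 3 alpha constant coding exons, shared by all 14 genes, were at chr18:37156155-37156213, chr18:37159265-37159353 and chr18:37184946-37185253, in the domain of Pcdhac1 and Pcdhac2. They are 59, 89 and 308 bp long. The 3 gamma constant coding exons, shared by all 21 genes, were at chr18:37825021-37825079, chr18:37833265-37833353 and chr18:37839903-37840126, in the domain of Pcdhga11 to Pcdhgc5. They are 59, 89 and 224 bp long, so the first pair has the same lengths in both clusters.

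The boundary lay 71.2 kb upstream of the first constant exon in alpha and 70.0 kb upstream in gamma. In alpha it stood 67.4% of the way from the first gene start to the constant exons, with 12 starts upstream of it and 2 downstream, both C-type. In gamma it stood 55.6% of the way, with 15 starts upstream, 1 inside and 5 downstream, of which 3 were C-type. All 5 C-type genes thus started in the same domain as the constant exons of their cluster, as did Pcdhga11 and Pcdhga12 of the alternate genes.

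Sequence features of the locus were read from the GRCm38 reference assembly of RefSeq, which is of another mouse strain than the FVB/NTac cells. The span had a GC content of 41.4%, against 41.8% in the genome. Repeats covered 39.0% of the span and 34.3% of the genome. DpnII, the enzyme whose cut sites limit the resolution of the contact map, had 2.80 sites per kb in the span and 2.51 per kb in the genome. Across the 4 member domains the density ranged from 2.41 to 3.01 sites per kb, and the median of all domains was 2.46. The gamma cluster was the richest in GC of the clusters, at 45.1%, and the poorest in repeats, at 20.5%, whereas the gap between beta and gamma was 58.2% repeats.

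The sequence was also searched for the 12-base core consensus of CTCF, the zinc finger protein whose sites block cohesin, on both strands and with exact matches only. The span held 20 matches, 6 on the plus strand and 14 on the minus strand, or 2.19 per 100 kb, against 0.497 per 100 kb in the genome. The families differed in the strand. All 6 matches in the alpha cluster were on the plus strand, and all 13 in the beta cluster were on the minus strand. The remaining minus-strand match lay in the gap between alpha and beta, 2.53 kb upstream of the boundary scoring 1.21. The gamma cluster held 0 exact matches.

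Within the clusters every match fell in a first coding exon and at a shared position. In the alpha genes the match began 457 bp from the start codon in Pcdha4, Pcdha6, Pcdha7, Pcdha8 and Pcdha12 and 460 bp in Pcdha1, reading in the sense direction. In the beta genes it was antisense and lay near the end of the exon, at 2183 to 2207 bp with a median of 2204 bp. The 13 beta genes were Pcdhb3, Pcdhb4, Pcdhb5, Pcdhb10, Pcdhb12 to Pcdhb17, and Pcdhb20 to Pcdhb22. First coding exons with a match numbered 19 of 57 in the members (33.3%), against 8 of 486 coding exons of 2000 to 3000 bp in other genes (1.65%). The read-through models, which overlap the members, were not left out of the other genes. The members are paralogues that share sequence, so their matches are not independent. A match is a run of letters and was not measured as a bound site.

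**Figure D5:**
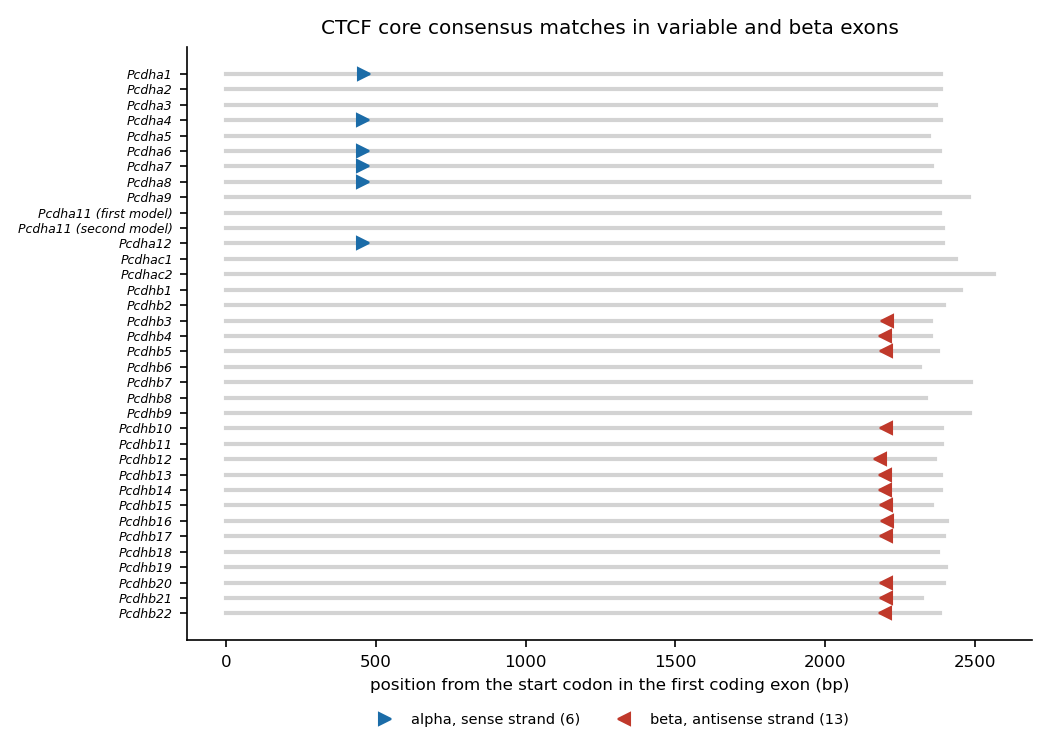
Position of exact matches to the CTCF core consensus in the first coding exon of the alpha and beta genes, in bp from the start codon (grey lines show each exon's length). The 6 alpha matches (blue, sense) stand at 457 to 460 bp, and the 13 beta matches (red, antisense) at 2183 to 2207 bp.

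Genes without an exact match were read around the same positions, with windows chosen after the exact matches had been seen. The fewest differences at any position of the window were taken. The best site therefore need not be the shared one, as at 471 bp in Pcdhac2 and 2162 bp in Pcdhb7. In the sense direction between 427 and 490 bp, Pcdha5 and the first Pcdha11 model differed from the consensus by 1 base at best, and Pcdha3 and the second Pcdha11 model by 2. Pcdha2 differed by 3, and Pcdha9, Pcdhac1 and Pcdhac2 by 4. In the antisense direction between 2153 and 2237 bp, Pcdhb6, Pcdhb8 and Pcdhb11 differed by 1 base, Pcdhb2 and Pcdhb18 by 2, and Pcdhb19 by 3. Pcdhb1, Pcdhb7 and Pcdhb9 differed by 5. The gamma genes differed by at least 3 bases in both windows. Genes of the other families came as near as 2 bases in the beta window, in Pcdha2, Pcdha5 and Pcdha8, and as near as 3 bases in the alpha window, in 6 beta and 5 gamma genes.

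The promoters and the boundaries of the locus were searched for the same letters. From 250 bp before to 50 bp after the gene start, 0 of 57 members held a match, against 124 of 21755 genes (0.570%). At so low a share, 0 among 57 is unremarkable. Only exact matches were counted, so a promoter without one was not shown to lack a CTCF site. Of the 7 boundaries described above, the one scoring 1.21 had 1 match within 10 kb, and the one scoring 0.384 had 2, of which one lay inside the interval and the other 1.27 kb upstream. The other 5, including the upstream border scoring 2.08, had none in that window. The share with a match within 10 kb was thus 2 of 7 boundaries at the locus (28.6%), against 2036 of all boundaries (26.0%).

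The first coding exons were richer in GC than the span around them. Their median GC content was 53.8% in alpha, 51.4% in beta and 52.5% in gamma. The observed number of CpG dinucleotides, the targets of DNA methylation, over that expected from base composition had a median of 0.660 in alpha, 0.437 in beta and 0.505 in gamma genes. Neither value was computed for coding exons of other genes, so these values are not shown to be particular to the members.

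Non-coding genes were interleaved with the members. The span contained 23 genes of other types in full, of which 10 were annotated as antisense, and 13 of the 23 lay on the minus strand. Antisense transcription from the first exons is known to take part in alpha promoter choice in human cells. Gm26672, a processed transcript on the minus strand, ran through the boundary scoring 0.203. Pcdhgb8, the polymorphic pseudogene, starts 6.80 kb downstream of the same boundary.

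All 6 nearest neighbours on either side started in other domains than the members or in a boundary interval. The 6 nearest protein-coding genes upstream were Ik, Wdr55, Dnd1, Hars, Hars2 and Zmat2, all in the 245 kb domain beyond the boundary scoring 2.08. Their starts lay 11.1 kb (Zmat2) to 60.3 kb (Ik) from that boundary. Hars and Hars2, the cytosolic and mitochondrial histidyl-tRNA synthetases, start 21.8 and 22.0 kb from it. This domain held 15 protein-coding starts and no member.

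Downstream, Diaph1 runs towards the gamma cluster on the minus strand. It started 29.5 kb from the strong boundary scoring 1.39, and its 3' end lay beyond the weak boundary scoring 0.384, so that it crossed 1 boundary and ended in the domain of the last gamma genes. Hdac3, a histone deacetylase, started 9.98 kb from the strong boundary, and Rell2 started 9.92 kb from it, on the same side as Diaph1. Arap3 started 29.0 kb beyond it. Pcdh1, a non-clustered protocadherin, was the sixth neighbour and lay 97.9 kb from a boundary scoring 0.891. Of the genes between beta and gamma, Slc25a2 started 111 kb and Taf7 106 kb from the nearest boundary, the one scoring 0.203.

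The non-clustered protocadherins are single genes outside the 3 clusters, some of which, like Pcdh1, lie downstream of them on the same chromosome. Of the 12 listed, 4 (33.3%) started within 10 kb of a boundary, against 16.4% of all protein-coding genes, and the median distance was 27.5 kb. They were Pcdh11x at 0.259 kb, Pcdh8 at 1.31 kb, Pcdh19 at 6.01 kb and Pcdh9 at 9.32 kb, next to boundaries scoring 0.489, 0.564, 0.755 and 2.22. Genes known to act on the clusters or with their proteins numbered 17, of which 3 (17.6%) lay within 10 kb of a boundary, close to the 16.4% of all protein-coding genes. These were Smc3, a cohesin subunit, at 0.398 kb, Nipbl, the cohesin loader, at 0.538 kb and Celsr1, an atypical cadherin, at 6.22 kb. Their median distance was 49.5 kb. These 2 lists are short, and no test was made between them and the members.

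The number of boundaries inside a gene cluster varied among the clusters that were examined. The 4 Hox clusters, with 9 to 11 genes in spans of 0.0968 to 0.174 Mb, held 0 boundaries each. The whole list has 3.07 boundaries per Mb, so spans this short can hold 0 without being unusual. The largest olfactory receptor cluster of chromosome 7, the receptor family from which these cells go on to choose, had 124 genes in 2.89 Mb and held 10 boundaries, or 3.46 per Mb. The clustered protocadherins held 3 boundaries, or 3.29 per Mb, with a median score of 0.303 and a highest score of 1.21. Of the 10 boundaries in the receptor cluster 3 were strong, with a median score of 0.356 and a highest score of 2.35.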

How the data were processed

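In situ Hi-C of 2 biological replicates was processed by the submitters. Per the series' design text, both replicates were combined into 1 contact matrix, and boundaries were called on it in GRCm38, the build also given in the submitters' processing notes. Which caller, window and cutoffs were used is not given in the sources used here. Each boundary's score was used unchanged from the authors' deposited list.

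Members and lists were chosen with earlier results of these data known, and every count is a description beside the same count over all protein-coding genes of GENCODE M21. Distance ran from the gene's 5' end to the nearest edge of the nearest 5 kb interval, 0 inside. A gene crossed a boundary when the whole interval lay between its start and end. Named genes were members within 10 kb of a boundary, ends of clusters, C-type genes, members next to boundaries, genes between the clusters, the 6 nearest neighbours on each side, and listed genes within 10 kb. Members named for exon matches, the range of gene lengths and the comparison loci were chosen after values were seen. Python 3.11.15, numpy 2.4.6, pandas 2.3.3 and matplotlib 3.10.9 were used, and the placement was tested on simulated data.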

Additional observations from a re-analysis of the deposited data

How the results depend on the processing

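Of 30 alternatives, 12 kept each count within 1.5 times its main value and 18 did not, and no direction was tested. Members starting near a boundary numbered 5 within 10 kb, 1 inside an interval, 9 within 25 kb and 13 within 50 kb, and 0 both with strong boundaries alone and with boundaries at or above the median score. Of the 12 non-clustered protocadherins, 4 lay within 10 kb of a boundary, 0 inside an interval, 5 within 25 kb and 10 within 50 kb. Of the 17 regulator and partner genes, 3 lay within 10 kb, 0 inside an interval, 7 within 25 kb and 9 within 50 kb. With all protein-coding transcript starts, 6 of them lay within 10 kb. Among all protein-coding genes the shares were 16.4% within 10 kb, 5.07% inside an interval, 27.8% within 25 kb and 46.3% within 50 kb. With all protein-coding transcript starts the share was 18.1% within 10 kb. With strong boundaries alone, and likewise at or above the median score, the span held 1 boundary in place of 3, the member starts fell in 2 domains in place of 4, and 0 members in place of 27 crossed a boundary. Counting the first coding exon alone, 0 crossed one. This 0 was fixed in advance, because first coding exons of 2316 to 2562 bp cannot hold a whole 5 kb interval. The member counts of 0 with strong boundaries alone and at or above the median score follow from the list itself, which then lacks both weak inner boundaries. Counts at a wider distance include those at a narrower one, so they cannot fall as the distance grows. For the remaining shifts the cause was not tested. With the replicates pooled and the depth unknown, the presence of these weak boundaries in each replicate could not be checked. No paired analysis was possible because there is 1 group and the boundaries were called on the combined replicates.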
